A study of Mus musculus with 9 samples.

Results

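Cyclins are the regulatory subunits and cyclin-dependent kinases (CDKs) the catalytic subunits of the enzymes that carry a cell through its division cycle. The 10 genes described here, of 56262 in each count table, are the D cyclins Ccnd1, Ccnd2 and Ccnd3, the E cyclins Ccne1 and Ccne2, the A cyclin Ccna2, the B cyclin Ccnb1, and the kinases Cdk1, Cdk4 and Cdk6. They were taken by name, and each name matched 1 gene ID in the tables. All 10 passed the filter on low counts that left 16595 genes for testing. Each had between 2876 and 66496 read pairs over the 9 libraries, Ccne1 the fewest and Cdk6 the most.

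D cyclins appear when growth factors act on a resting cell, and with Cdk4 or Cdk6 they start the phosphorylation of the RB protein in G1. E cyclins with Cdk2 then bring the cell across the border between G1 and S phase. Cyclin A2 works through S phase and G2, and cyclin B1 with Cdk1 drives entry into mitosis. Adult long-term hematopoietic stem cells (LT-HSCs), which sustain blood formation for life, are mostly out of cycle, and loss of blood cells calls them into it. In human blood stem cells CDK6 is known to be low in long-term cells at rest, and in mice Cdk6 is known to be needed for stem cells to leave rest.

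RNA was measured in bone marrow cells of C57BL/6 wild-type mice that the labels call LT-HSCs, sorted as Lin-, Sca1+, c-Kit+ and CD150+ with a last marker written C48-. Mice of the 5-FU+FMT group received 250 mg/kg of 5-fluorouracil (5-FU), which blocks thymidylate synthesis and so is toxic to cells that copy DNA, and then FMT, an agent not spelled out in the labels, into a vein at 5 mg/kg on days 1, 4 and 7. Mice of the 5-FU+Saline group received the same dose of 5-FU and then saline, called PBS in the series text, on a schedule that is not stated. Cells of both groups were taken on day 8, and Control mice were untreated. Each group held 3 libraries. The labels give neither the sex of the mice nor whether a library came from 1 mouse or a pool, so p-values measure the spread between these libraries, which may be technical.

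Libraries held 11098031 to 19270976 counted read pairs, and the 10 genes together took 0.184% to 0.186% of them in 5-FU+FMT, 0.216% to 0.217% in 5-FU+Saline and 0.138% to 0.140% in Control. Slamf1, which encodes CD150, averaged 24.4 CPM in 5-FU+FMT, 34.5 CPM in 5-FU+Saline and 8.35 CPM in Control, where CPM is the count scaled by library size and TMM factor. Cd48 RNA was present too, at 46.7 CPM in 5-FU+FMT, 53.7 CPM in 5-FU+Saline and 30.7 CPM in Control. The 12 stem cell and positive gate markers summed to 1853 to 1896 CPM in 5-FU+FMT, 1512 to 1526 CPM in 5-FU+Saline and 2389 to 2420.4 CPM in Control, and none was at 0. Xist, expressed from the inactive X chromosome of female cells, averaged 682 CPM in 5-FU+FMT, 1201 CPM in 5-FU+Saline and 0.870 CPM in Control. Ddx3y, on the Y chromosome, had 98.0 to 102 CPM in 5-FU+FMT, 37.1 to 41.9 CPM in 5-FU+Saline and 164 to 172 CPM in Control. By library, Xist had 659 to 695 CPM in 5-FU+FMT, 1183 to 1223 CPM in 5-FU+Saline and 0.533 to 1.34 CPM in Control. Both sex-linked RNAs were thus in every library of the 5-FU groups, and their balance differed between the groups. The part of this difference in the levels below was not tested. In bulk RNA, fewer cells of a type and less RNA per cell cannot be told apart.

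Of the 10 genes, 9 were higher in 5-FU+Saline than in Control, and Cdk6 alone was lower (edgeR quasi-likelihood test, Benjamini-Hochberg adjusted p under 0.05 over all genes tested). Over all genes, 32.8% were called higher and 32.7% lower in this comparison. In 5-FU+FMT all 10 lay between the other groups. Against 5-FU+Saline, 9 were lower, where 19.2% of all genes were, and Cdk6 was higher, where 17.7% were. Against Control, 9 were higher and Cdk6 was lower, where 25% and 21.6% of all genes were. The median log2 fold change of the 10 genes was 1.08 in 5-FU+Saline against Control, -0.33 in 5-FU+FMT against 5-FU+Saline and 0.71 in 5-FU+FMT against Control, where the medians of all genes tested were -0.02, 0.01 and -0.01. The libraries of the groups compared did not overlap in CPM for any of the 10 genes in any of the 3 comparisons, where 67.8%, 46.3% and 52.7% of all genes were free of overlap. The comparisons share libraries, so their counts are not independent of each other.

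**Figure D1:**
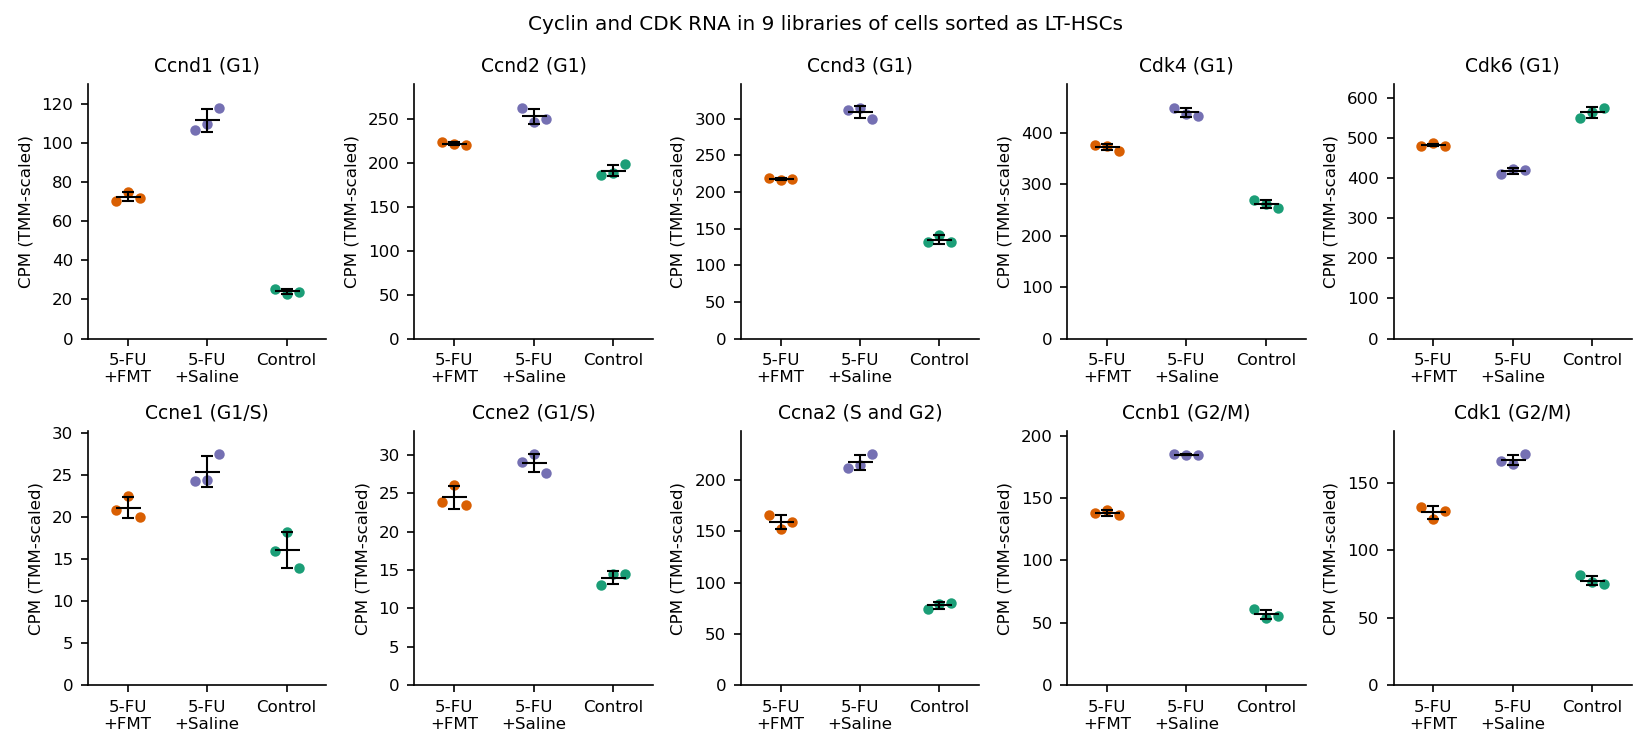
CPM of each gene in each library (points) with the mean and SD of the 3 libraries of a group (black), in 5-FU+FMT, 5-FU+Saline and Control, with each vertical axis starting at 0. In the 9 panels other than Cdk6 the points of 5-FU+Saline are highest and those of Control lowest, and in the Cdk6 panel this order is turned round.

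Among the D cyclins, Ccnd1 (ENSMUSG00000070348, chr7:144929931-144939925 on the minus strand of mm10) differed most. It had 70.6, 75.1 and 72.2 CPM in the 5-FU+FMT libraries, 107, 109.9 and 118 CPM in 5-FU+Saline, and 25.4, 23.0 and 24.0 CPM in Control. No 2 groups came near each other. The fitted level was 4.62-fold higher in 5-FU+Saline than in Control (log2 fold change 2.21 ± 0.0599 SE, edgeR adjusted p = 1.09e-46), placing the gene above 97.9% of all genes tested. In 5-FU+FMT it was 1.54-fold lower than in 5-FU+Saline (log2 fold change -0.62 ± 0.0509, edgeR adjusted p = 1.26e-17) and 3.0-fold higher than in Control (edgeR adjusted p = 2.45e-35).

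Ccnd2, the D cyclin that is prominent in blood and lymphoid cells, differed least of the 9 genes that were higher after 5-FU. Its levels were 223, 222 and 220.4 CPM in 5-FU+FMT, 263, 246 and 249.8 CPM in 5-FU+Saline, and 186, 188 and 198 CPM in Control. The groups were separate, but closer to each other than for the other D cyclins. The fold was 1.32 in 5-FU+Saline over Control (log2 fold change 0.40 ± 0.0328, edgeR adjusted p = 1.71e-18), and the level in 5-FU+FMT was 1.14-fold lower than in 5-FU+Saline (edgeR adjusted p = 1.23e-06).

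Ccnd3, which sustains division in maturing lymphoid and red cells, had 219.7, 216 and 218 CPM in 5-FU+FMT, 312, 315 and 299.9 CPM in 5-FU+Saline, and 131, 142 and 132 CPM in Control. Each group formed a tight cluster far from the others. The gene was 2.29-fold higher in 5-FU+Saline than in Control (log2 fold change 1.20 ± 0.0337, edgeR adjusted p = 1.35e-45). It was 1.42-fold lower in 5-FU+FMT than in 5-FU+Saline (log2 fold change -0.50 ± 0.0319, edgeR adjusted p = 3.5e-23).

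Because longer transcripts yield more read pairs, genes were set against each other as TPM, counts per exon length scaled over the protein-coding genes. The 3 D cyclins together reached 253 ± 3.07 TPM in 5-FU+FMT, 331 ± 1.21 TPM in 5-FU+Saline and 163 ± 2.86 TPM in Control (SD, n = 3 each). Ccnd1 gave 24.2 ± 0.685% of this sum in 5-FU+FMT, 27.6 ± 1.5% in 5-FU+Saline and 12.6 ± 0.780% in Control. Ccnd2 gave 36.9 ± 0.263% in 5-FU+FMT, 31.3 ± 0.929% in 5-FU+Saline and 49.7 ± 1.23% in Control, where it was the leading D cyclin. Ccnd3 gave 38.9 ± 0.447%, 41.1 ± 1.13% and 37.7 ± 1.48% in the same groups, and its shares in 5-FU+FMT and Control overlapped. The largest share was that of Ccnd2 in Control and that of Ccnd3 in both 5-FU groups.

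The kinase partners of the D cyclins moved in opposite directions. Cdk4 had 375, 375 and 365 CPM in 5-FU+FMT, 449, 436 and 433 CPM in 5-FU+Saline, and 269, 261 and 253 CPM in Control. The groups were separate, and Cdk4 had the highest TPM of the 10 genes in each group, at 453 ± 8.43 TPM in 5-FU+FMT, 521 ± 6.52 TPM in 5-FU+Saline and 321 ± 8.20 TPM in Control. It was 1.68-fold higher in 5-FU+Saline than in Control (log2 fold change 0.75 ± 0.0292, edgeR adjusted p = 1.45e-36) and 1.18-fold lower in 5-FU+FMT than in 5-FU+Saline (edgeR adjusted p = 3.42e-11).

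Cdk6 (chr5:3341485-3531008, plus strand of mm10) had 482, 487 and 482 CPM in 5-FU+FMT, 411, 425 and 419.8 CPM in 5-FU+Saline, and 551, 566 and 577 CPM in Control. Control libraries were the highest and 5-FU+Saline libraries the lowest, without overlap. The level was 1.35-fold lower in 5-FU+Saline than in Control (log2 fold change -0.43 ± 0.0266, edgeR adjusted p = 1.09e-24). It was 1.16-fold higher in 5-FU+FMT than in 5-FU+Saline (log2 fold change 0.21 ± 0.0267, edgeR adjusted p = 6.43e-10) and 1.17-fold lower than in Control (edgeR adjusted p = 2.75e-11). When TPM was scaled over all genes, small RNA and rRNA genes included, Cdk6 had 99.2 TPM in 5-FU+FMT, 94.7 TPM in 5-FU+Saline and 95.2 TPM in Control, and no comparison was called (limma on log2 TPM, log2 fold change -0.01 with adjusted p = 0.812 for 5-FU+Saline against Control). The sign turned in 5-FU+FMT against Control alone, at a log2 fold change of 0.060. Those small RNA and rRNA genes took 13.0% of all TPM in 5-FU+FMT, 3.70% in 5-FU+Saline and 24.8% in Control, and this scale moved the median log2 fold change of all genes to 0.37 in 5-FU+Saline against Control, -0.12 in 5-FU+FMT against 5-FU+Saline and 0.25 in 5-FU+FMT against Control. It called 9218 genes higher and 2250 lower in the first of these comparisons, 1407 and 5325 in the next and 8020 and 1080 in the last, where edgeR on counts called 5443 and 5429, 2945 and 3178, and 4151 and 3584. On TPM over protein-coding genes Cdk6 had 137 ± 1.99, 115 ± 2.73 and 161 ± 4.29 TPM in 5-FU+FMT, 5-FU+Saline and Control.

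The ratio of Cdk4 to Cdk6 is taken within a library, so such a shift of all genes cancels in it. It was 3.31 ± 0.0478 in 5-FU+FMT, 4.52 ± 0.153 in 5-FU+Saline and 1.99 ± 0.103 in Control (SD, n = 3 each), and no libraries of different groups overlapped. The ratio of summed D cyclin TPM to summed Cdk4 and Cdk6 TPM was 0.429 ± 0.00441 in 5-FU+FMT, 0.520 ± 0.00554 in 5-FU+Saline and 0.338 ± 0.00817 in Control, so both kinases together outnumbered the D cyclins per length in every group.

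**Figure D2:**
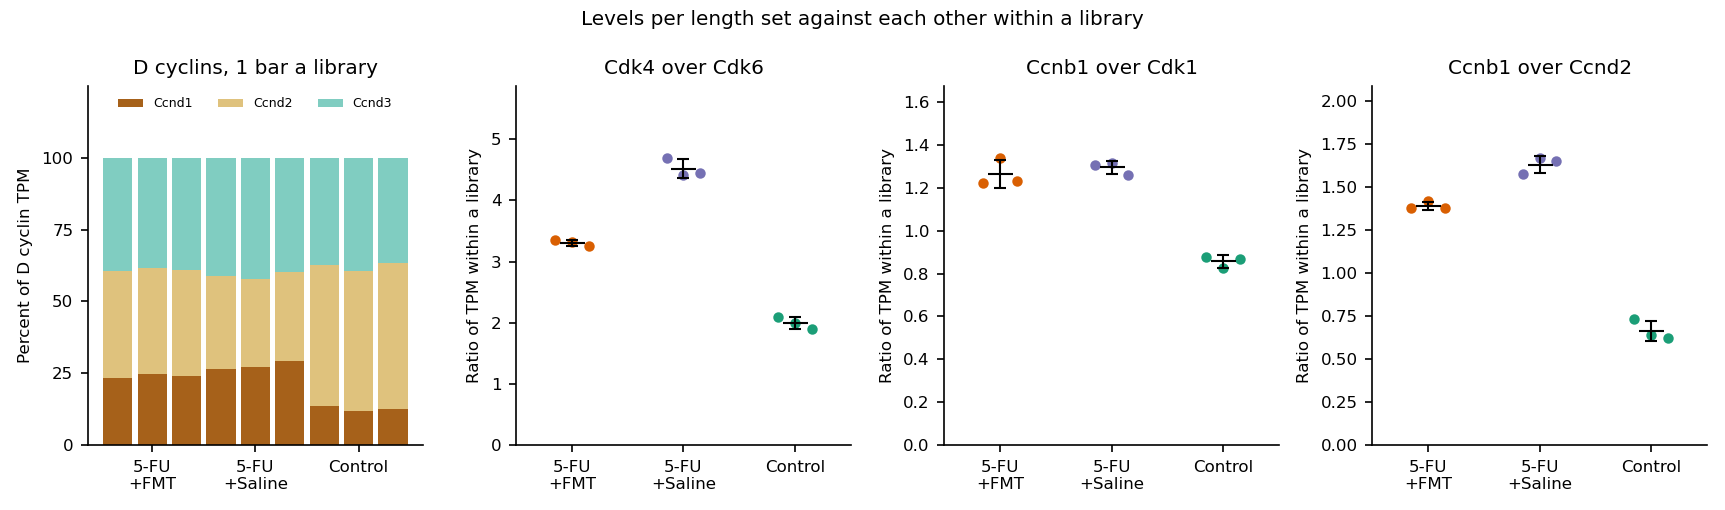
Within-library shares and ratios of TPM in 5-FU+FMT, 5-FU+Saline and Control: the shares of the 3 D cyclins (1 stacked bar a library) and the ratios Cdk4 over Cdk6, Ccnb1 over Cdk1 and Ccnb1 over Ccnd2 (points are libraries, black marks mean and SD). The Ccnd1 segment is smallest in Control, and Cdk4 over Cdk6 is highest in 5-FU+Saline, at 4.52, and lowest in Control, at 1.99.

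Per length, the E cyclins were the least abundant of the 10 genes in 5-FU+FMT and 5-FU+Saline. Ccne1 had 20.8, 22.5 and 20 CPM in 5-FU+FMT, 24.3, 24.4 and 27.5 CPM in 5-FU+Saline, and 16.0, 18.2 and 13.9 CPM in Control. The groups did not overlap, but the 5-FU groups were close. Ccne1 was 1.61-fold higher in 5-FU+Saline than in Control (log2 fold change 0.68 ± 0.0979, edgeR adjusted p = 4.31e-09). Its level in 5-FU+FMT was 1.21-fold lower than in 5-FU+Saline (edgeR adjusted p = 0.0170), and the edgeR adjusted p was 0.137 with 5-FU+Saline replicate 3 left out, 0.0530 with 5-FU+FMT replicate 1 left out and 0.0834 with 5-FU+FMT replicate 3 left out.

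Ccne2 had 23.8, 26.1 and 23.4 CPM in 5-FU+FMT, 29.0, 30.1 and 27.7 CPM in 5-FU+Saline, and 13.0, 14.5 and 14.5 CPM in Control. Control libraries lay well below the rest. The gene was 2.06-fold higher in 5-FU+Saline than in Control (log2 fold change 1.04 ± 0.0935, edgeR adjusted p = 1.47e-16) and 1.18-fold lower in 5-FU+FMT than in 5-FU+Saline (edgeR adjusted p = 0.0206). With replicate 1 or 2 of 5-FU+Saline left out the second edgeR adjusted p was 0.0510 or 0.0855, and with replicate 1 or 3 of 5-FU+FMT left out it was 0.0752 or 0.0900. The calls against Control held for both E cyclins with each library left out. Ccne1 over Ccne2 in TPM was 1.13 ± 0.0122 in 5-FU+FMT, 1.15 ± 0.130 in 5-FU+Saline and 1.51 ± 0.217 in Control, and the libraries of 5-FU+Saline overlapped with those of both other groups.

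Cyclin A2 is built up as DNA is copied. Ccna2 had 166, 152 and 159 CPM in 5-FU+FMT, 212, 215 and 225 CPM in 5-FU+Saline, and 74.1, 79.0 and 80.3 CPM in Control. The groups were far apart. The gene was 2.79-fold higher in 5-FU+Saline than in Control (log2 fold change 1.48 ± 0.0406, edgeR adjusted p = 2.36e-46). It was 1.37-fold lower in 5-FU+FMT than in 5-FU+Saline (log2 fold change -0.45 ± 0.0371, edgeR adjusted p = 1.6e-17) and 2.04-fold higher than in Control (edgeR adjusted p = 1.41e-34).

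Ccnb1 (chr13:100778650-100786570, minus strand of mm10) had the larger fold of the mitotic pair. Its levels were 138, 141 and 136 CPM in 5-FU+FMT, 185.4, 184.5 and 184.6 CPM in 5-FU+Saline, and 61.1, 53.8 and 55.4 CPM in Control. The 5-FU+Saline libraries agreed to within an SD of 0.449 CPM. Ccnb1 was 3.25-fold higher in 5-FU+Saline than in Control (log2 fold change 1.70 ± 0.0436, edgeR adjusted p = 2.51e-48) and 1.34-fold lower in 5-FU+FMT than in 5-FU+Saline (log2 fold change -0.42 ± 0.0388, edgeR adjusted p = 3.34e-15).

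Its kinase Cdk1 (chr10:69335146-69352938, minus strand of mm10) had 132, 123 and 129 CPM in 5-FU+FMT, 166, 164 and 171 CPM in 5-FU+Saline, and 81.3, 76.5 and 74.6 CPM in Control. Again no groups overlapped. Cdk1 was 2.16-fold higher in 5-FU+Saline than in Control (log2 fold change 1.11 ± 0.0424, edgeR adjusted p = 4.32e-37) and 1.30-fold lower in 5-FU+FMT than in 5-FU+Saline (edgeR adjusted p = 3.27e-13). The cyclin moved further than the kinase: Ccnb1 over Cdk1 in TPM was 1.26 ± 0.0654 in 5-FU+FMT, 1.29 ± 0.0296 in 5-FU+Saline and 0.857 ± 0.0298 in Control. Both 5-FU groups stood above 1 and Control below it, and the 5-FU groups overlapped.

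**Figure D3:**
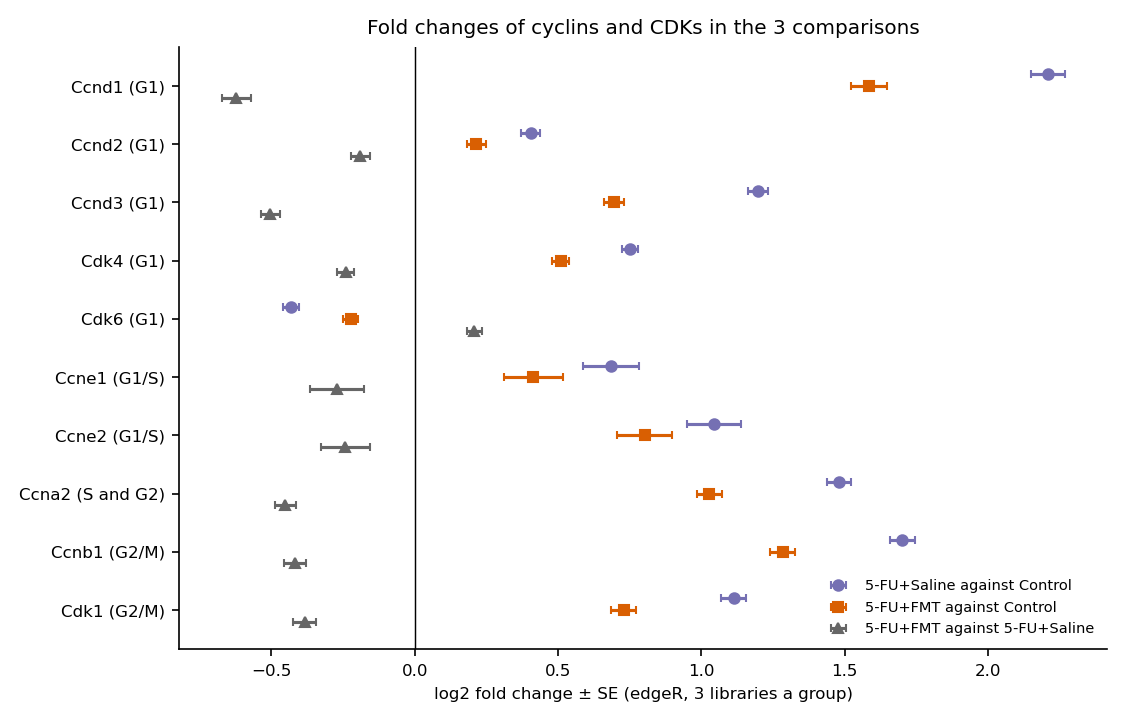
Log2 fold change with its SE for each gene in 5-FU+Saline against Control (circles), 5-FU+FMT against Control (squares) and 5-FU+FMT against 5-FU+Saline (triangles), from the edgeR fit over all genes. For 9 genes circles and squares lie right of 0 and triangles left of it, with Ccnd1 farthest out at 2.21, and for Cdk6 all 3 sides are exchanged.

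Promoters of genes that peak in G2 and mitosis are known for a pairing of CCAAT boxes, bound by NF-Y, with a CHR element, bound by complexes built on MuvB, and those of S phase genes for E2F sites. RefSeq windows on GRCm38.p6, from 250 bases before to 50 bases after a gene's start, were at hand for Ccnd3 (a pair of windows), Ccne1, Ccnb1, Cdk1, Cdk4 and Cdk6, 6 of the 10 genes. Those of Cdk1 and Ccnb1, which rose with the mitotic genes, and of Cdk6, which fell, are printed 5′ to 3′ along the gene. Capitals mark matches on either strand to TTTGAA, the CHR letters, to CCAAT, and to an E2F core, spelled TTGGCGC or in other forms as TTCCCGC or else as TTGCCGC or else as TTCGCGC. The Cdk1 window is chr10:69352863-69353162 and the Ccnb1 window chr13:100786437-100786736, both on the minus strand, and the Cdk6 window is chr5:3343643-3343942 on the plus strand. The whole Cdk6 window lies inside the gene as counted, which begins at chr5:3341485, so the region around that first base was not searched.
Cdk1: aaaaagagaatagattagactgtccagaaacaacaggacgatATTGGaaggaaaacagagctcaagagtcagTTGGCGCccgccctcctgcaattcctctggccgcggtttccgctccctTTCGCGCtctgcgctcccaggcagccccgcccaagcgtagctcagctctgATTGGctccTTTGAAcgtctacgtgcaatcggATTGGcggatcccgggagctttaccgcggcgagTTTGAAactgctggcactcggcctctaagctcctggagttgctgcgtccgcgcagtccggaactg
Ccnb1: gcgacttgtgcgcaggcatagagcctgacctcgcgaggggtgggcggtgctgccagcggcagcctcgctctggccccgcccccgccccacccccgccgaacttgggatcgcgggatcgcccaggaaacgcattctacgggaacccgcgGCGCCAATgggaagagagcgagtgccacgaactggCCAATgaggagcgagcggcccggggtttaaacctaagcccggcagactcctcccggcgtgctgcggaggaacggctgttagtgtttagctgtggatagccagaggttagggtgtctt
Cdk6: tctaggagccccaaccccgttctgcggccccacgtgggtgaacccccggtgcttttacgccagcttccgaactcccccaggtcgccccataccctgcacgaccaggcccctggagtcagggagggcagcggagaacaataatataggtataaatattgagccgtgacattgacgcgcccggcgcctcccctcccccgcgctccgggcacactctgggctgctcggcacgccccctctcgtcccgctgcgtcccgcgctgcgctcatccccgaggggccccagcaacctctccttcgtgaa

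The Cdk1 window held 2 TTTGAA matches, starting 71 and 15 bases before the start site, 3 CCAAT boxes and 2 E2F cores. The Ccnb1 window held 2 CCAAT boxes and 1 E2F core, which shares bases with the first CCAAT box, and no TTTGAA. This was the only spelling of the CHR element searched, so a window without it may hold another. The E2F core was likewise searched only in the exact spellings given above, so a window without a match may hold another form. Of the other windows, 1 of Ccnd3 held a single CCAAT box, and those of Ccne1, Cdk4 and Cdk6 and the other of Ccnd3 held no match to these motifs. The AP-1 letters TGACTCA were in none of the members' windows. Among all 32851 windows, 17.9% held TTTGAA, 37.4% CCAAT, 9.57% an E2F core and 5.20% the AP-1 letters. A match is a run of letters and not evidence that a factor binds.

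To contrast the phases, mean log2(CPM + 0.5) was taken per library over the 5 G1 genes (D cyclins, Cdk4 and Cdk6), over the E cyclins, and over the 3 genes of S phase and G2/M (Ccna2, Ccnb1 and Cdk1). The G1 mean was 7.84 ± 0.0113 in 5-FU+FMT, 8.11 ± 0.00335 in 5-FU+Saline and 7.29 ± 0.00228 in Control. The S and G2/M mean was 7.15 ± 0.0320 in 5-FU+FMT, 7.56 ± 0.0254 in 5-FU+Saline and 6.14 ± 0.0314 in Control. The S and G2/M genes thus differed by 1.43 on the log2 scale between 5-FU+Saline and Control, where the G1 genes differed by 0.82 and the E cyclins by 0.84. Between 5-FU+FMT and 5-FU+Saline the differences were -0.42 for the S and G2/M genes, -0.27 for the G1 genes and -0.25 for the E cyclins.

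The G1 mean less the S and G2/M mean was 0.662, 0.740 and 0.690 in the 5-FU+FMT libraries, 0.565, 0.560 and 0.521 in 5-FU+Saline, and 1.12, 1.17 and 1.17 in Control. The 3 groups did not overlap, and Control was the most weighted to G1 genes. The mean was lower by 0.61 in 5-FU+Saline than in Control and higher by 0.15 in 5-FU+FMT than in 5-FU+Saline. With the E cyclins counted with the S and G2/M genes these differences were -0.37 and 0.082. No p is given, since it is a score over chosen genes. The G1 genes were not of 1 kind. Their log2 fold changes in 5-FU+Saline against Control ran from -0.43 (Cdk6) to 2.21 (Ccnd1), a span that holds those of Ccna2, Ccnb1 and Cdk1. In 5-FU+FMT against 5-FU+Saline they ran from -0.62 (Ccnd1) to 0.21 (Cdk6), with Ccnd3 at -0.50, Cdk4 at -0.24 and Ccnd2 at -0.19. Ccna2, Ccnb1 and Cdk1 had -0.45, -0.42 and -0.38 there. Cdk6 alone went the other way in both comparisons, so the score differences lean heavily on this gene, most of all in 5-FU+FMT against 5-FU+Saline. The other G1 genes, at -0.62 to -0.19 in that comparison, lay on both sides of Ccna2, Ccnb1 and Cdk1. A score without Cdk6 is not given here. In TPM, Ccnb1 over Ccnd2 was 1.39 ± 0.0229 in 5-FU+FMT, 1.63 ± 0.0501 in 5-FU+Saline and 0.665 ± 0.0573 in Control, while Ccnb1 over Ccnd1 was 2.13 ± 0.0483, 1.85 ± 0.0993 and 2.62 ± 0.0519 in these groups. The order of the groups was thus opposite for these D cyclins.

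**Figure D4:**
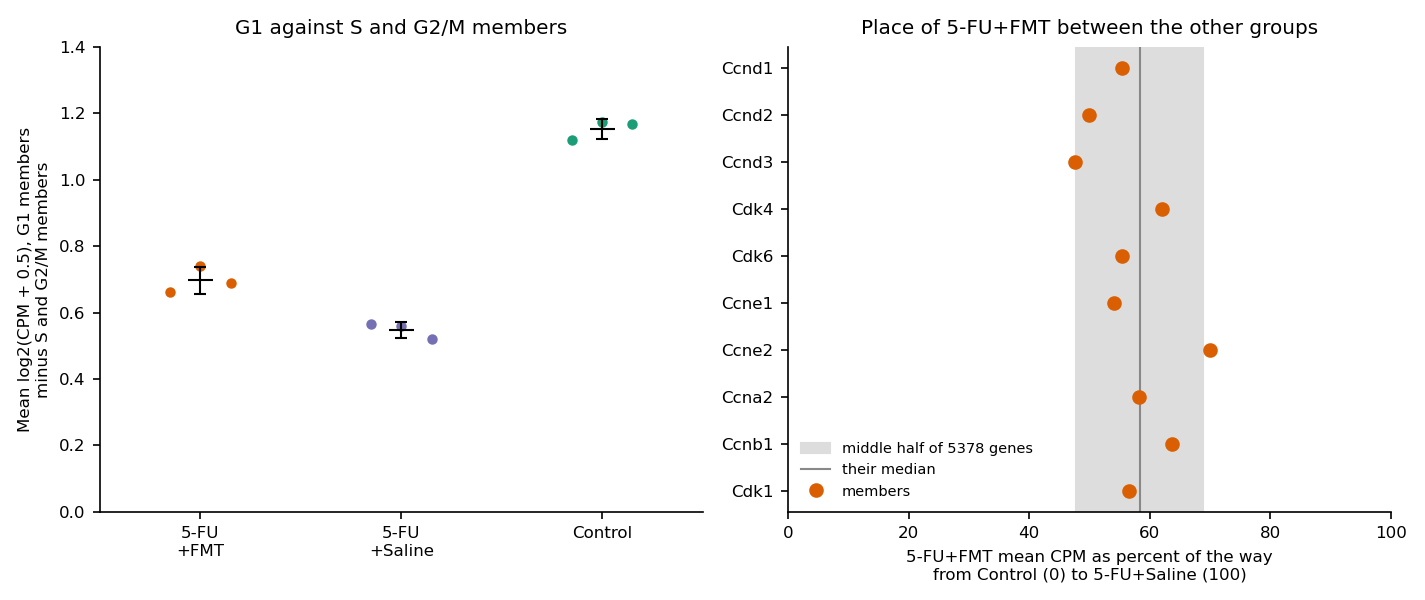
Left, the mean log2(CPM + 0.5) of the 5 G1 genes less that of Ccna2, Ccnb1 and Cdk1 in each library (points) with mean and SD (black); Control lies at 1.15, above 5-FU+FMT at 0.697 and 5-FU+Saline at 0.549. Right, the mean CPM of 5-FU+FMT as a percent of the way from Control (0) to 5-FU+Saline (100) for each gene, with the median (line) and middle range from 25% to 75% (band) of 5378 called genes; the 10 genes lie from 47.6 to 69.9.

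The level in 5-FU+FMT was also placed on the way from Control (0%) to 5-FU+Saline (100%), by mean CPM. The 10 genes lay at 47.6% (Ccnd3) to 69.9% (Ccne2), with Ccnd1 and Cdk6 at 55.4%, Ccna2 at 58.1% and Ccnb1 at 63.6%. All 5378 genes that were called and at least 1.5-fold apart between 5-FU+Saline and Control had a median of 58.4%, and their range from 25% to 75% of genes was 47.8% to 68.9%. The 2331 of them that were higher in 5-FU+Saline had a median of 54.5% and a range of 44.4% to 63.7%, and the 3047 that were lower had a median of 61.6% and a range of 51.5% to 71.7%. Read by direction, Ccne2 lay above the range of the genes that were higher, Ccnb1 lay at its upper edge, and the other members lay inside the range of their direction. Ccnd2 and Cdk6 were themselves less than 1.5-fold apart and so are not among the 5378 genes. Xist, at 56.8%, and Ddx3y, at 52.8%, were inside the range of their direction as well.

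Markers of other cells moved between the groups as well. Their counts stand beside 32.8% of all genes called higher and 32.7% called lower in 5-FU+Saline than in Control. In 5-FU+FMT against 5-FU+Saline these shares were 17.7% and 19.2%. All 14 B lineage progenitor markers were higher in 5-FU+Saline than in Control and lower in 5-FU+FMT than in 5-FU+Saline, with sums of 668 to 722 CPM in 5-FU+FMT, 1301 to 1307 CPM in 5-FU+Saline and 229 to 242 CPM in Control. All 13 erythroid markers were lower in 5-FU+Saline than in Control, with sums of 429 to 449 CPM in 5-FU+FMT, 208 to 212 CPM in 5-FU+Saline and 814 to 828 CPM in Control. Granulocyte markers, 7 of 12 lower and 4 higher in 5-FU+Saline than in Control, summed to 893 to 1015, 159.9 to 176 and 2327 to 2372 CPM in 5-FU+FMT, 5-FU+Saline and Control. Of 11 stromal markers tested, 10 were higher and 1 was lower in 5-FU+Saline than in Control. Stromal sums were 84.1 to 89.3, 269.6 to 279 and 63.2 to 64.3 CPM in those groups, with Col3a1 and Lum at 0 in Control. Pdgfrb, the 1 that was lower, averaged 27.6, 13.0 and 57.1 CPM in the same order and made up most of the Control sum. Cxcl12, 1 of the 10 that were higher, averaged 24.2, 127 and 2.32 CPM. Plasma cell markers, 5 of 7 lower and 2 higher in 5-FU+Saline than in Control, summed to 8542 to 8848 CPM in 5-FU+FMT, 7642 to 7843 CPM in 5-FU+Saline and 12604 to 12848 CPM in Control. Endothelial markers, 6 of 8 higher and 1 lower, summed to 349 to 379.8, 390.3 to 405 and 343 to 357 CPM in those groups. Tie1, 1 of the 6 that were higher, made up most of each sum, at 208, 219 and 207 CPM. Fabp4, also among the 6, averaged 3.88, 19.2 and 0.320 CPM. Pecam1, the 1 that was lower, averaged 87.7, 75.9 and 99.6 CPM. Flt3, a receptor of early progenitors, averaged 279.5 CPM in 5-FU+FMT, 70.9 CPM in 5-FU+Saline and 584 CPM in Control. None of the B lineage, erythroid, granulocyte or plasma cell markers was at 0 in any group. The part of these cells in the cyclin and kinase levels was not tested.

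Of 20 S phase genes, such as the replication helicase and nucleotide synthesis genes, all 20 were higher in 5-FU+Saline than in Control (median log2 fold change 0.92) and 17 were lower in 5-FU+FMT than in 5-FU+Saline (median -0.34). Uhrf1, which keeps DNA methylation through replication, averaged 307 ± 6.26, 447 ± 2.96 and 167 ± 2.29 CPM in 5-FU+FMT, 5-FU+Saline and Control. Rrm2, a subunit of ribonucleotide reductase, was 3.0-fold higher in 5-FU+Saline than in Control (edgeR adjusted p = 1.61e-46). Of 20 G2/M genes, all 20 were higher in 5-FU+Saline than in Control (median 1.11) and 19 were lower in 5-FU+FMT than in 5-FU+Saline (median -0.31). Among them Mki67, the proliferation antigen, averaged 795 ± 4.14, 991 ± 10 and 443 ± 15 CPM in 5-FU+FMT, 5-FU+Saline and Control, and Top2a, the topoisomerase of mitotic chromosomes, was 2.57-fold higher in 5-FU+Saline than in Control (edgeR adjusted p = 1.78e-55). Against Control, 19 of the S phase genes and all 20 G2/M genes were higher in 5-FU+FMT, where 25% of all genes were. Their medians were 0.58 and 0.80. Over all genes 32.8% were higher and 32.7% lower in 5-FU+Saline than in Control, and 17.7% and 19.2% in 5-FU+FMT than in 5-FU+Saline. These shares stand beside the list counts here and below.

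Activators of CDKs behaved likewise: 8 of 8 were higher in 5-FU+Saline than in Control and 7 of 8 were lower in 5-FU+FMT than in 5-FU+Saline. The phosphatase Cdc25b, which removes inhibitory phosphates from Cdk1, averaged 76.5, 109.5 and 32.6 CPM in 5-FU+FMT, 5-FU+Saline and Control, and the mitotic kinase Plk1 averaged 74.0, 105 and 37.6 CPM. Cdc25b was 3.36-fold and Plk1 2.78-fold higher in 5-FU+Saline than in Control (edgeR adjusted p = 2.67e-42 and 8.45e-38). The kinases that place inhibitory phosphates differed from each other. Pkmyt1 was 1.58-fold higher in 5-FU+Saline than in Control (edgeR adjusted p = 2.14e-17), while Wee1 had a log2 fold change of -0.01 ± 0.0482 (edgeR adjusted p = 0.814).

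The inhibitor proteins did not move as 1 group. Of 6 tested, 3 were higher and 1 was lower in 5-FU+Saline than in Control, where 32.8% and 32.7% of all genes were. In 5-FU+FMT against 5-FU+Saline 1 was higher and 4 were lower, where 17.7% and 19.2% of all genes were. Cdkn1b, the p27 inhibitor linked to quiescence, averaged 122, 96.2 and 141 CPM in 5-FU+FMT, 5-FU+Saline and Control. It was 1.46-fold lower in 5-FU+Saline than in Control (edgeR adjusted p = 1.43e-19) and 1.27-fold higher in 5-FU+FMT than in 5-FU+Saline (edgeR adjusted p = 2.83e-10), the same order of groups as Cdk6. Cdkn1a, the p21 inhibitor and a p53 target, averaged 77.8, 93.5 and 93.2 CPM in 5-FU+FMT, 5-FU+Saline and Control. It was 1.20-fold lower in 5-FU+FMT than in 5-FU+Saline (edgeR adjusted p = 8.41e-06), with a log2 fold change of 0.00 ± 0.0489 between 5-FU+Saline and Control (edgeR adjusted p = 0.936). Cdkn3, a phosphatase of CDKs counted with this list, was 2.32-fold higher in 5-FU+Saline than in Control (edgeR adjusted p = 1.57e-12).

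Of 14 genes of cyclin turnover, 9 were higher and 0 lower in 5-FU+Saline than in Control, and 0 were higher and 9 lower in 5-FU+FMT than in 5-FU+Saline. Ube2c and Cdc20, which serve the anaphase-promoting complex that destroys cyclin B1, were 3.24-fold and 2.53-fold higher in 5-FU+Saline than in Control (edgeR adjusted p = 1.8e-45 and 1.48e-43). Of 19 genes of the E2F, RB and DREAM machinery, 14 were higher and 2 lower in 5-FU+Saline than in Control, and 2 were higher and 11 lower in 5-FU+FMT than in 5-FU+Saline. E2f2 averaged 62.7 ± 5.29, 102 ± 2.86 and 21.0 ± 1.83 CPM in 5-FU+FMT, 5-FU+Saline and Control, a 4.84-fold difference between 5-FU+Saline and Control (edgeR adjusted p = 5.7e-45). Its partner Tfdp1 was 2.03-fold higher in 5-FU+Saline than in Control (edgeR adjusted p = 4.47e-43). Rbl2, the p130 pocket protein of resting cells, chosen after its values were seen, averaged 86.8, 76.3 and 104 CPM in 5-FU+FMT, 5-FU+Saline and Control and was 1 of the 2 that were lower in 5-FU+Saline.

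The lists of other cyclins and other CDKs hold mostly genes of transcription, and with them Cdk2 and the CDK-activating pair Cdk7 and Ccnh. Their counts stand beside 32.8% of all genes higher and 32.7% lower in 5-FU+Saline than in Control. Of 10 other cyclins, 3 were higher and 6 lower in 5-FU+Saline than in Control, with Ccnl1, a cyclin of the splicing machinery, 2.33-fold lower (edgeR adjusted p = 3.54e-51) and Ccnt1, of the elongation factor P-TEFb, 1.82-fold lower (edgeR adjusted p = 1.83e-33). Of 15 other CDKs, 3 were higher and 6 lower, with Cdk19 and Cdk11b 1.51-fold and 1.5-fold lower (edgeR adjusted p = 8.45e-25 and 1e-23). In 5-FU+FMT against 5-FU+Saline, 3 were higher and 1 was lower in either list, where 17.7% and 19.2% of all genes were. In that comparison Ccnl1 was 1.47-fold higher (edgeR adjusted p = 4.04e-28) and Cdk19 1.17-fold higher (edgeR adjusted p = 5.53e-07). Cdk2, the partner of the E and A cyclins, named after its values were seen, averaged 157, 175 and 136 CPM in 5-FU+FMT, 5-FU+Saline and Control, a 1.29-fold difference between 5-FU+Saline and Control (edgeR adjusted p = 1.17e-14). Of 6 other cell cycle cyclins tested, Ccnb2, a second mitotic cyclin, and Ccnf, part of a ubiquitin ligase, were 2.38-fold and 2.28-fold higher (edgeR adjusted p = 1.01e-36 and 3.42e-29), 2 were lower and 2 were not called.

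**Figure D5:**
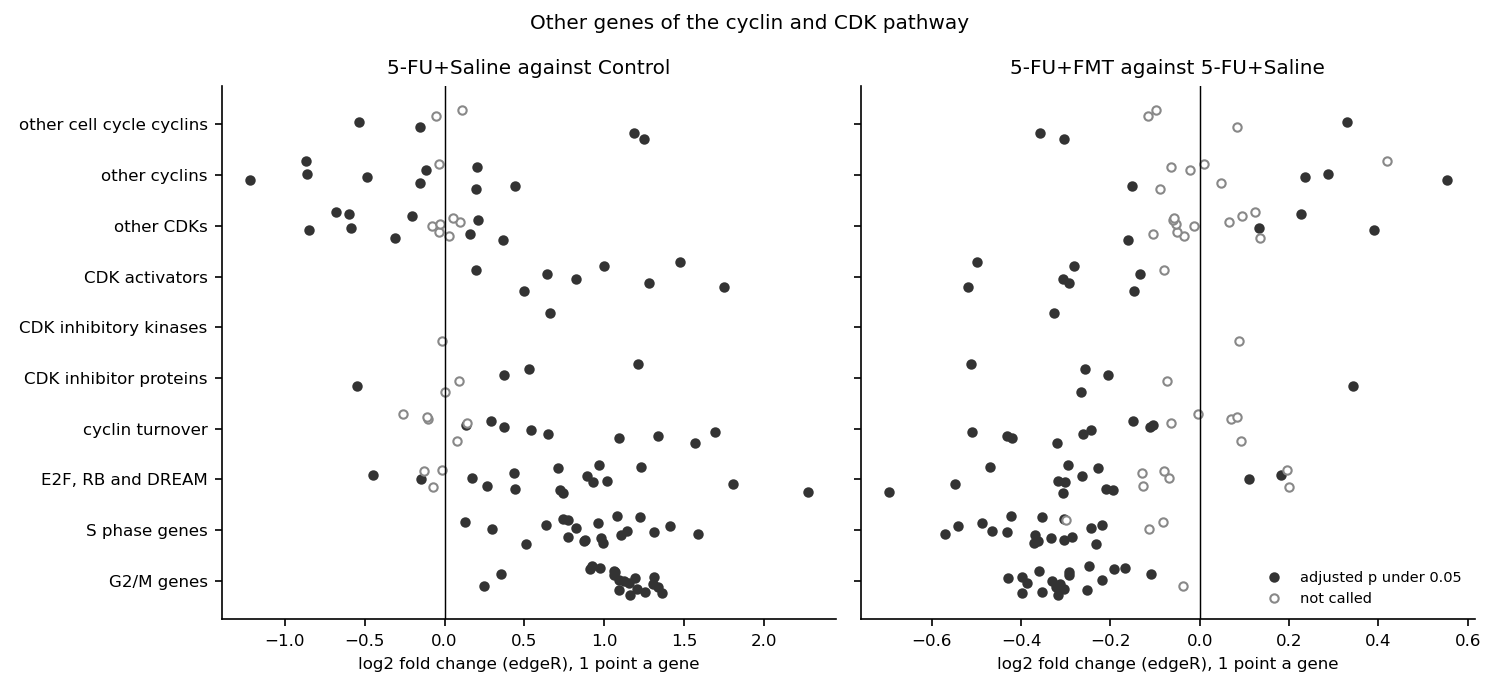
Log2 fold changes of the other pathway genes, 1 point a gene, by list, in 5-FU+Saline against Control (left) and 5-FU+FMT against 5-FU+Saline (right); filled points passed an adjusted p under 0.05 in edgeR. All S phase and G2/M points lie right of 0 on the left and left of 0 on the right, while the other cyclins and other CDKs lie on both sides.

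The tested genes whose log2(CPM + 0.5), centred on their own mean, differed least from a member over the 9 libraries were sought among 13225 genes with a symbol. For Ccnd1 they were Tpm4, E2f2 and Thy1, at root mean square differences of 0.0564, 0.0774 and 0.0842. For Ccne1 they were Sumf1, Lama5 and Slc25a4 (0.0689 to 0.0723). For Ccnb1 they were Tgfbr3, C1qtnf6 and Grb10 (0.0571 to 0.0770). E2f2 was the only gene of the pathway lists among these 9.

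Counting was without strand, so read pairs over exon bases shared with a gene on the other strand cannot be assigned to either. Such overlaps touched Ccnd1 (1100 exon bases, with LTO1), Ccne2 (609, Ints8), Cdk4 (641, Tspan31), Ccna2 (510, Exosc9), Ccnd2 (372, Gm43126, and 368, 9330179D12Rik), Cdk6 (368, Gm17590) and Ccnd3 (361, Bysl), and not Ccne1, Ccnb1 or Cdk1. The processed pseudogene Ccnb1-ps had at most 29 read pairs in a library and Ccnd3-ps at most 4.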

How the data were processed

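Per the labels' protocols, libraries for paired reads were made from Trizol-extracted total RNA with a NEBNext Ultra II kit. The submitters' processing notes name Trim Galore 0.6.5, HISAT2 2.2.1, SAMtools, featureCounts 2.0.1 and the build mm10. The deposited values are raw counts: per the file headers, featureCounts took read pairs on exons, by gene, from GENCODE M25, with no strand option. Everything else was computed here from those counts. Gene types, such as protein-coding, were read from GENCODE M21. IDs with no type there were left out of the TPM scaled over protein-coding genes.

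Symbols were matched for 55141 of 56262 IDs. One edgeR fit (version 4.0.16, R 4.3.3) with filterByExpr, TMM and the quasi-likelihood F test held all 3 groups of 3 libraries and 16595 genes, and p-values were adjusted by Benjamini-Hochberg over all of them. SEs are the fitted log2 fold change over the root of F. The members and the gene lists were chosen with earlier results of these data known. All 10 members are named, with up to 2 genes a list and comparison with the smallest p. The fit was tested on simulated counts. Replicates of a group differed by more than sampling noise: chi-square per degree of freedom was 2.15 to 2.58 in the 9 pairs within groups and 24.1 to 130 in the 27 pairs between groups, so none was merged. Alternatives were other scalings, filters, tools (DESeq2, limma-voom), fits of 2 groups, a replicate block, each library left out, and limma on log2(TPM + 0.5), which was chosen after seeing the data. Figures were drawn with matplotlib.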

Additional observations from a re-analysis of the deposited data

How the results depend on the processing

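Of the 600 recomputed log2 fold changes of the 10 genes, 588 kept direction and call, 11 lost the call and 1 was reversed. Scaling TPM over all genes ended the call of Cdk6 in the 3 comparisons: its log2 fold change in 5-FU+FMT against Control became 0.060, so 0 members were lower there, 0 were lower in 5-FU+Saline against Control and 0 were higher in 5-FU+FMT against 5-FU+Saline. The other lost calls are those of Ccne1 and Ccne2 in 5-FU+FMT against 5-FU+Saline when a library was left out, given above, and on TPM over protein-coding genes (limma adjusted p = 0.0875 and 0.0528). With 1 library left out, 7 to 9 members were lower in that comparison, 1 was higher, and in both comparisons with Control 9 were higher and 1 was lower. All genes called then ranged from 10298 to 11054 in 5-FU+Saline against Control, 5301 to 6199 in 5-FU+FMT against 5-FU+Saline and 6912 to 7724 in 5-FU+FMT against Control.

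The difference in G1 less S and G2/M level ranged with 1 library left out from -0.62 to -0.59, 0.13 to 0.17 and -0.48 to -0.44 in these comparisons. It was -0.37, 0.082 and -0.29 with the E cyclins counted with S and G2/M, and -0.81 and -0.62 in the comparisons with Control as a log2 ratio of summed TPM. With the replicate number as a block, 10847, 6193 and 7717 genes were called and no member's call changed. Same-numbered libraries of different groups had correlations of -0.007 to 0.016 between their deviations, so the numbers do not pair them. The labels tie no library to a batch. Ccne1 and Ccne2 had the fewest read pairs of the 10 genes over all libraries, at 158 to 536 a library.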
